A study of Homo sapiens with 6 samples.

Results

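The RNA recovered with CELF1 from SK-Mel-103 cells was compared, gene by gene, with the RNA of the same lysate. SK-Mel-103 is an established human melanoma cell line carrying mutated NRAS. The series holds 6 samples, namely an IP and an input sample of SK-Mel-103 replicate 1 and of UACC-62 replicates 1 and 3, and the inputs were read from a column of the IP lists. The cells were untreated, grown in medium with serum, fixed with formaldehyde and sonicated, and CELF1 was pulled down with an antibody against CUGBP1, its older name. SK-Mel-103 had 1 IP and 1 input, so no test between them was possible, and all values of this cell line are descriptions whose intervals cover counting error only.

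CELF1 is an RNA-binding protein of the CELF family. It recognises GU-rich stretches, often in the 3′ UTR, and is known for roles in alternative splicing, deadenylation, mRNA decay and translation. In RNA immunoprecipitation followed by sequencing (RIP-Seq), a transcript that travels with the protein takes a larger share of the reads in the IP than in the input, whereas an abundant transcript that does not is still carried along as background.

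The deposited list of SK-Mel-103 held 816781 bins of 20 bp that had passed the peak caller, with 10958459 IP reads and 8453517 input reads. No listed bin had fewer than 4 IP reads, and 9.69% of the bins had no input read. Bins in the exons of a single gene, read on the reverse of the listed strand, held 79.0% of the IP reads and 88.6% of the input reads. Read on the strand as listed, they would hold 3.93% and 4.38%. For each gene the IP and the input reads of its listed exonic bins were summed, divided by the total of the list, and expressed as log2 IP over input with 1 read added to each side. Of 62902 annotated genes, 13066 had a listed exonic bin, and 6696 were kept with at least 200 reads in at least 10 bins, of which 6542 were protein-coding. Over the 3 lists together, 8013 genes were kept in at least 1. Bins that did not pass the caller are absent from the list, so each value describes passing bins alone and says nothing of input elsewhere in the gene.

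Lineage markers were checked first, and most pigment genes had no listed read. SOX10, a transcription factor of the neural crest and melanocyte lineage, was present with 651 IP and 864 input reads. PAX3, another lineage marker, was present as well, with 195 IP and 39 input reads. PMEL, TYR, TYRP1, DCT, S100A1, S100B, KIT and EDNRB had no listed read, while MITF and MLANA had 48 and 28 IP reads. The receptors AXL, NGFR and EGFR, known from melanomas that have lost pigment genes, held 5796, 873 and 329 IP reads. WNT5A, from the same set of markers, held 129 IP reads. Among 12 markers of keratinocytes, fibroblasts and blood cells, KRT10 with 108 and LUM with 27 IP reads were the ones with any. In UACC-62, TYR had 909 and 798 IP reads and AXL 21 and 24 in replicates 1 and 3. PMEL, TYRP1 and KIT had no listed read in UACC-62 either. A gene without a listed read had no passing bin, which is not the same as having no RNA. In such bulk samples, fewer cells of a type and less RNA per cell cannot be told apart.

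UGU is the core of the GU-rich elements that CELF1 is known to bind. The 30-nt windows below are read 5′ to 3′ on the transcript strand from GRCh37, each being the 3′ UTR bin of 20 nt with the most IP reads and 5 nt on each side, with UGU in capitals. They are shown for genes of the high end with and without UGU, for CELF1 and CCND1, and for genes of the low end.
FGF13: UGUUGUauacccaaauacgcaccgaauaaa
NACC2: cgucUGUGUGUGUgcgucUGUGUgcgcgug
DYNLL2: gaUGUcucccuugacucuucUGUGUauaug
CELF2: gaucaaaguuuuuucugauucuucUGUccu
GINS1: uauucguuUGUucuuuuaugcuuugggUGU
JUND: aagucucguuacgccagcucggcucuccgc
HIF1AN: ccucagugccucagccugagagagagauga
CELF1: aucugccaagUGUgguaccuuccuuUGUuu
CCND1: aaUGUcauauacugccaUGUacuaguuuua
YBX1: gucucuuuuugguaauaacaaacgUGUuuu
RPL3: aaguuauuuuccacugacaucuugccucuu
FTL: gcagcuuucuuaacuauccuaacaagccuu
RPL29: uacaaauaaaccugaggcaggauuUGUuag

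The FGF13 window lies at chrX:137713756-137713785 on the minus strand and held 610 IP and 17 input reads in its bin. NACC2, at chr9:138899296-138899325 on the minus strand, had 6 overlapping UGU and 122 IP reads against 1 input read. The CELF1 window, at chr11:47487516-47487545 on the minus strand, held 1373 IP and 56 input reads, and that of CCND1, at chr11:69468116-69468145 on the plus strand, 1214 and 125. On the plus strand lie those of DYNLL2 at chr17:56167556-56167585 (369 IP and 15 input reads), CELF2 at chr10:11376216-11376245 (114 and 3), GINS1 at chr20:25427516-25427545 (292 and 41) and HIF1AN at chr10:102308316-102308345 (218 and 7), the last without UGU. JUND, at chr19:18390556-18390585 on the minus strand, had no UGU either and held 246 and 21 reads. At the low end, the bin of YBX1 at chr1:43167816-43167845 on the plus strand held 157 IP against 511 input reads, and that of FTL at chr19:49470076-49470105 on the plus strand 284 against 616. The minus-strand windows of RPL3, at chr22:39708876-39708905, and RPL29, at chr3:52027636-52027665, held 265 against 661 and 267 against 935. The annotated 3′ end of RPL3 is at chr22:39708887, so the last bases of its window are genomic sequence past that end. Such windows could be read for 14 of the 15 top genes, of which 9 held UGU, and for all 15 bottom genes, of which 6 did. Searched on the transcript strand alone, UGU was found in 49.6% of the windows around all 314048 listed 3′ UTR bins, and in 54.3% of those with more than 30 IP reads. A UGU in a window is a description of the sequence and no binding site.

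The median gene lay slightly below an equal share, at a log2 IP over input of -0.33, with quartiles at -0.88 and 0.34. The 5th and the 95th percentile were -1.43 and 1.61. At least 2-fold higher in the IP were 805 genes, 12.0% of the 6696 kept, and at least 2-fold lower were 1323 genes, 19.8%. The balance between these counts rests on the scaling. Dividing by the reads in the exonic bins of the genes kept moved the median to -0.15 and gave 997 higher and 831 lower, and centring each gene on the median gave 1187 and 519. Higher genes thus made up 37.8%, 54.5% and 69.6% of those past 2-fold under these scalings, so the values below are best read against the median of -0.33.

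The 15 protein-coding genes at the top, ranked by the lower bound of their 95% Clopper-Pearson interval, comprised regulators of RNA and transcription, signalling and transport proteins, and a replication factor. FGF13, an intracellular fibroblast growth factor homologue that binds sodium channels, had the highest value, with 8822 IP against 504 input reads. Its log2 IP over input was 3.75 (95% interval 3.63 to 3.89), a 13.5-fold larger share in the IP. CELF2, the paralogue of CELF1, followed the same direction with 3034 against 250 reads and 3.22 (3.04 to 3.42). Regulators of transcription also stood in this group. JUND, a subunit of AP-1, had 2110 against 146 reads and 3.47 (3.24 to 3.73). NACC2, a transcriptional repressor with a BTB domain, had 3974 against 286 reads and 3.42 (3.25 to 3.60). ZNF483, a zinc-finger protein, had 1854 against 129 reads and 3.46 (3.21 to 3.74).

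Among genes of the cell cycle and of signalling, GINS1, a subunit of the replicative helicase, stood out with 9470 IP against 920 input reads and 2.99 (2.89 to 3.09). DYNLL2, a light chain of dynein and myosin V, had 6937 against 576 reads and 3.21 (3.09 to 3.34). HIF1AN, the asparaginyl hydroxylase that restrains HIF-1, was at 2.74 (2.66 to 2.83), the small GTPase RAP2A at 2.73 (2.65 to 2.81), and the ARL2 partner ARL2BP at 2.75 (2.65 to 2.87). SLC29A1, an equilibrative nucleoside transporter, was at 3.01 (2.74 to 3.30). CREBL2, a leucine-zipper protein, was at 2.93 (2.84 to 3.02), and RCCD1 at 3.15 (2.91 to 3.41). The intervals of all these genes lay far from the median gene at -0.33, which follows from their choice by the lower bound.

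Both remaining genes of the top group carry a limit. RIMS1, a scaffold of synaptic vesicle release, had 213 IP and 12 input reads and 3.67, with the wide interval of 2.94 to 4.75, and it was not kept in UACC-62, with 0 and 5 IP reads. PLCXD1 had 1137 against 71 reads and 3.61 (3.28 to 3.99). It lies in the pseudoautosomal region, so its sequence is also on chromosome Y, which was left out here.

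**Figure D1:**
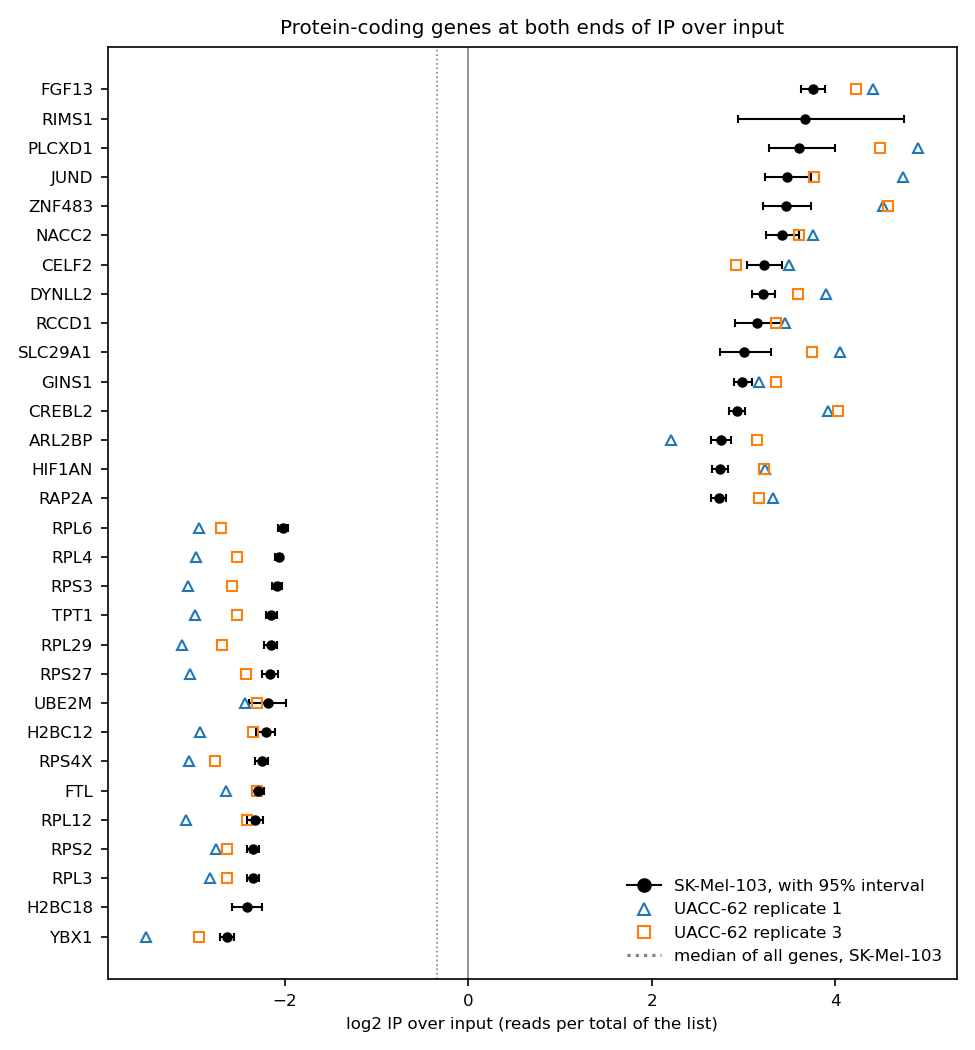
The 15 protein-coding genes at each end by log2 IP over input (x axis). Black points are SK-Mel-103 with 95% Clopper-Pearson intervals, open triangles and squares are UACC-62 replicates 1 and 3 for genes kept in both lists, and the dotted line is the median of all genes in SK-Mel-103 (-0.33); FGF13 (3.75) and YBX1 (-2.63) mark the ends.

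The low end was made of abundant housekeeping transcripts. YBX1, a cold-shock protein that coats mRNA, had the lowest value of all genes kept, with 1769 IP against 8444 input reads and -2.63 (-2.70 to -2.56). Of the 15 genes with the lowest upper bounds, 9 code for ribosomal proteins, namely RPS2, RPL3, RPL12, RPS4X, RPL29, RPS27, RPS3, RPL4 and RPL6, with log2 IP over input from -2.34 to -2.02. RPL4 had the most reads of them, 8118 IP against 26188 input, and stood at -2.06 (-2.10 to -2.03). FTL, the light chain of ferritin, was at -2.29 (-2.36 to -2.23), and TPT1, the translationally controlled tumour protein, at -2.14 (-2.20 to -2.09). The histone genes H2BC18 and H2BC12 were at -2.40 (-2.57 to -2.25) and -2.21 (-2.31 to -2.10), and UBE2M, the conjugating enzyme of NEDD8, at -2.18 (-2.39 to -1.98). Ribosomal protein and histone genes have near-identical copies, and the aligner could place a read at up to 20 sites. A read may thus be counted at several copies, or at a copy it did not come from.

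The CELF1 transcript itself was among the richest in the IP. It ranked 6th of all genes by IP reads, with 32774 against 4080 in the input, and had a log2 IP over input of 2.63 (2.58 to 2.68), a 6.20-fold larger share. Most IP reads of all were held by DCBLD2, a transmembrane receptor of neuropilin type, with 165881 against 42526 input reads and 1.59 (1.57 to 1.60). The kinase UHMK1 followed at 1.73, the cyclin CCND1 with 51397 against 8713 reads at 2.19 (2.15 to 2.22), and its kinase partner CDK6 with 37946 against 11085 reads at 1.40. NUCKS1 (1.40), the stress-granule protein G3BP1 (0.999), the calmodulin gene CALM2 (0.98), the nuclear import receptor TNPO1 (1.71) and ARPP19, an inhibitor of PP2A (1.19), completed the first 10. Among these 10 genes 8 were at least 2-fold higher, against 12.0% of all genes, but they were chosen by IP reads, the numerator of the value, so the count is a description alone. MALAT1, an abundant nuclear RNA, had 27352 IP reads but 36713 in the input, and stood at -0.80.

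Next, 37 lists of genes by function were described, whose counts are to be read against 12.0% higher and 19.8% lower among all genes kept. The highest medians belonged to Wnt signalling, lysosomal genes, zinc-finger genes and solute carriers. In the Wnt list the median over 17 genes was 0.37, with 5 at least 2-fold higher and 1 at least 2-fold lower. Its top member TCF7L2, the nuclear partner of beta-catenin, was at 2.56 (2.22 to 2.96), while CTNNB1, beta-catenin itself, was at -0.72 with 5128 IP reads. Of 131 zinc-finger genes named ZNF, 29 were at least 2-fold higher and 5 lower, with a median of 0.15, and 19 of them fell in the highest 5% of protein-coding genes. ZNF483 led that list, and ZNF460, with the most IP reads in it, had 10779 against 2273 reads and 1.87. Of 82 solute carriers, 20 were at least 2-fold higher and 6 lower (median 0.12). In UACC-62 replicates 1 and 3 the medians of genes kept in all lists were 0.32 and -0.01 for Wnt and -0.53 and -0.28 for lysosomal genes. They were 0.23 and 0.50 for zinc-finger genes and 0.01 and 0.24 for solute carriers. All genes kept there had medians of -0.74 and -0.47. In SK-Mel-103 the lysosomal list had a median of 0.17 with 4 genes higher and 5 lower among 26, close to the shares of all genes. Its top member ATP6V1A, of the proton pump, was at 1.38.

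Proteins that themselves regulate RNA spread over the whole range. Among 33 kept, the median was 0.06, with 5 at least 2-fold higher and 4 lower, against 12.0% and 19.8% of all genes. CELF2 (3.22) and CELF1 (2.63) lay near the top together with CPEB3 (3.02) and CPEB2 (2.10), which control cytoplasmic polyadenylation, and ELAVL1, or HuR, was at 0.76. At the bottom lay IGF2BP3 at -1.23, PTBP1 at -1.29, IGF2BP2 at -1.36 and YBX1 at -2.63. Apart from CELF1, CELF2 and YBX1, these members were named after their values were seen, as were TNRC6B, E2F3, DUSP5, SPRY4 and NRAS among the genes that follow. Of 12 genes of the microRNA pathway, 3 were at least 2-fold higher and none lower. They were TNRC6C (2.19), TNRC6B (1.90) and AGO2 (1.59), which take part in silencing. In mRNA decay, 5 of 38 genes were higher and 10 lower (median -0.66). The deadenylase CNOT6 had 13237 against 1787 reads and 2.51, while PABPC1, which coats the poly(A) tail, was at -1.59.

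Lists of proliferation held single genes with high values, while several of their counts lay near the shares of all genes (12.0% higher and 19.8% lower). The list of G1 cyclins, kinases and inhibitors had 3 of 20 genes at least 2-fold higher and 3 lower (median -0.52). The higher ones were CCND1 (2.19), E2F3 (2.16) and CDK6 (1.40), and SKP2 was lowest at -1.36. Immediate early genes had 4 of 15 higher and 1 lower (median -0.01), with JUND at 3.47 and FOSL1 at -1.22. In the RAS to ERK pathway 3 of 23 were higher and 5 lower (median -0.18), close to the shares of all genes. The higher ones were feedback inhibitors of this pathway, namely SPRED1 (2.05), DUSP5 (1.57) and SPRY4 (1.48), whereas the phosphatase PTPN11 was at -1.47 and NRAS, mutated in this line, at -0.95. Of 47 mitotic genes 4 were higher and 17 lower (median -0.75), with the E2 enzyme UBE2C highest, TOP2A at 0.56, BIRC5 at 0.89 and SMC4 at -1.56. DNA replication had 2 of 45 genes higher, GINS1 at 2.99 and RRM2, of ribonucleotide reductase, at 1.74, and 16 lower, down to POLD2 at -1.36. DEK, a chromatin protein, was at -0.26 (-0.30 to -0.21), close to the median gene. Its 3′ UTR, however, was at 0.04, with 6469 IP against 4844 input reads, and its coding region at -1.47, with 948 against 2027. Over protein-coding genes kept with at least 100 reads in each region, the medians were -0.32 in the 3′ UTR and -0.72 in the coding region.

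The lowest medians belonged to cytosolic ribosomal proteins and histones, followed by glycolysis, aminoacyl-tRNA synthetases, the proteasome, the cytoskeleton, oxidative phosphorylation, initiation factors and mitochondrial ribosomal proteins. Among all genes 19.8% were lower and 12.0% higher. Of 84 cytosolic ribosomal protein genes kept, 71 were at least 2-fold lower in the IP and none higher, with a median of -1.62 against -0.33 over all genes, and 57 of them fell in the lowest 5%. RPL15 was the highest at -0.24. Replication-dependent histones had a median of -1.46, with 44 of 51 genes lower and none higher. Aminoacyl-tRNA synthetases had a median of -1.20 with 15 of 20 lower, and translation initiation factors one of -1.13 with 27 of 48 lower and 2 higher, from EIF5A at -1.95 to the cap-binding protein EIF4E2 at 2.42. Nuclear genes of oxidative phosphorylation had a median of -1.13, with 47 of 68 lower and none higher, and COX6B1 lowest at -2.05.

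Mitochondrial ribosomal protein genes had a median of -1.10, with 39 of 66 lower and 1 higher. That 1 was MRPL19, which had 14535 IP against 2000 input reads and stood at 2.49 (2.42 to 2.56). Of 35 proteasome genes 25 were lower (median -1.17), while PSMD10 was higher at 1.25. Glycolysis had a median of -1.25, with 9 of 16 genes lower, LDHA at -1.78 and GAPDH at -1.62. The cytoskeleton list had a median of -1.14, with 28 of 44 lower and TPM4 at -1.88, but CAPZA1, which caps actin filaments, had 18758 against 3804 reads and 1.93. Splicing factors (28 of 72 lower, 3 higher, median -0.78) and secretion genes (19 of 58 lower, 1 higher, median -0.78) lay between. With the alternative scaling by exonic reads, 4 in place of 9 list medians lay past 2-fold lower, and after centring 2, those of histones and cytosolic ribosomal proteins.

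**Figure D2:**
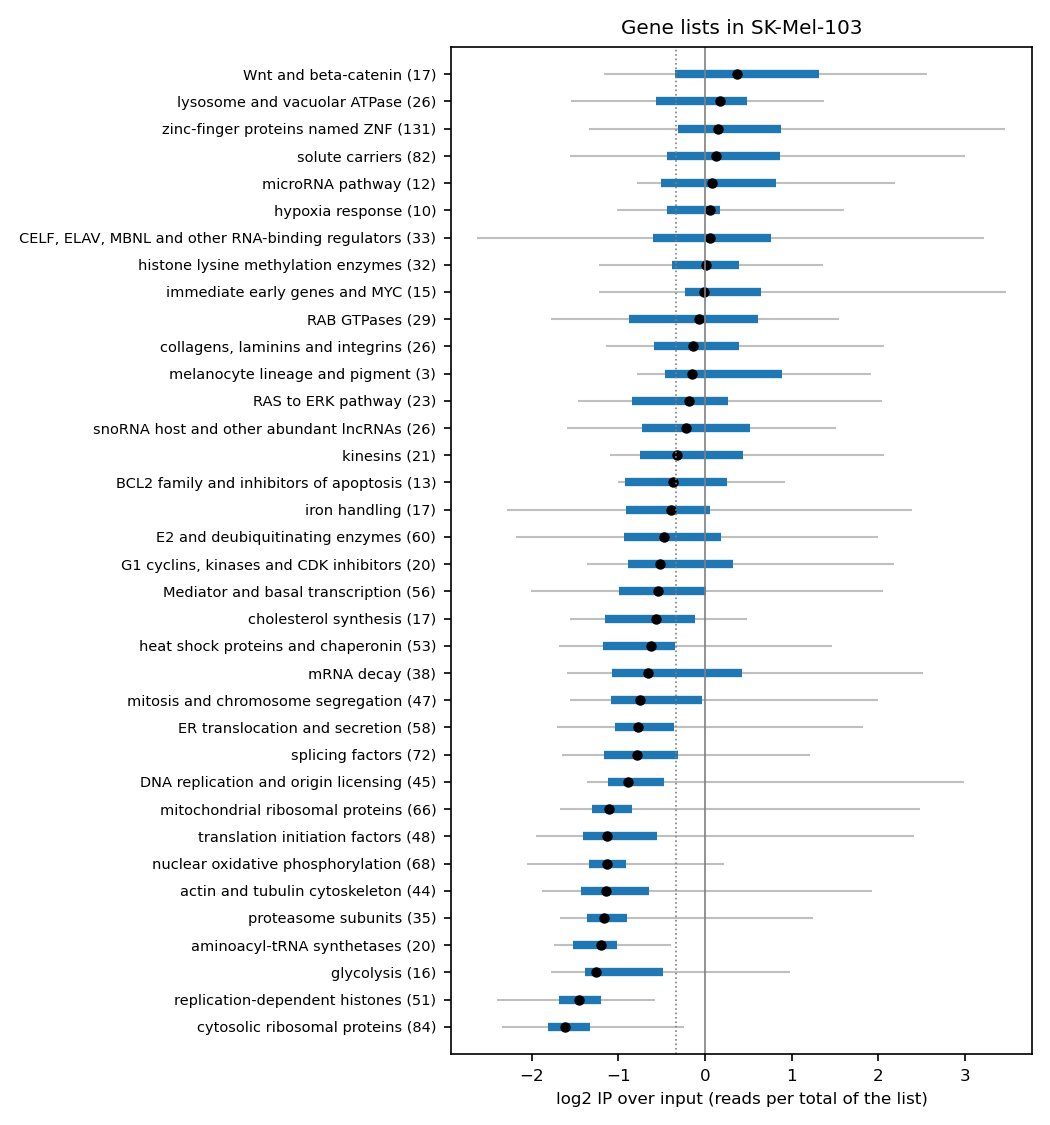
Log2 IP over input of gene lists in SK-Mel-103, with the number of genes kept in parentheses. Points are medians, thick bars quartiles and thin lines the range; the dotted line is the median of all genes (-0.33). Cytosolic ribosomal proteins (-1.62) and histones (-1.46) lie lowest, and Wnt genes (0.37) highest.

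Of the remaining lists, none had a median past 2-fold, and the counts of several, such as the kinesins and the E2 and deubiquitinating enzymes, lay near the shares of all genes (12.0% higher and 19.8% lower). Hypoxia genes had 2 of 10 higher and 1 lower (median 0.06), with VHL at 1.57 and HIF1A at -1.01. Histone methylation enzymes had 1 of 32 higher and 2 lower (0.01). The RAB GTPases had 5 of 29 in each direction (-0.07), from RAB1A at 1.55 to RAB8A at -1.78. Matrix and integrin genes had 1 of 26 each way (-0.13), with ITGB3 at 2.07. Kinesins had 3 of 21 each way (-0.32), with KIF5C at 2.07. The BCL2 family together with the inhibitors of apoptosis had none of 13 higher and 1 lower (-0.36). Iron handling had 1 of 17 higher and 3 lower (-0.40), spanning HMOX1 at 2.39, which degrades haem, to FTL at -2.29. E2 and deubiquitinating enzymes had 6 of 60 higher and 14 lower (-0.47), Mediator and basal transcription 5 of 56 and 14 (-0.55), cholesterol synthesis none of 17 and 5 (-0.57), and chaperones 5 of 53 and 21 (-0.63). Of the lineage list 3 genes were kept, with PAX3 at 1.92. Of snoRNA hosts and other long non-coding RNAs, 3 of 26 were higher and 3 lower (-0.22), from PVT1 at 1.51 to DANCR at -1.59.

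The 154 genes kept of other types, such as long non-coding RNAs and pseudogenes, had a median of 0.18, against -0.34 for protein-coding genes. A gene of few input reads was kept only with many IP reads, so these values do not describe the types as a whole. The 26 snoRNA hosts and other abundant long non-coding RNAs above had a median of -0.22. The highest was the pseudogene CTD-2328D6.1, with 7136 IP against 172 input reads and 4.99 (4.78 to 5.23). Pseudogenes have related copies, so where its reads come from is uncertain. LINC00632, a long non-coding RNA on chromosome X, had 347 against 10 reads and 4.61, with an interval of 3.85 to 5.82. The genes ENSG00000277879, ENSG00000289194 and ENSG00000288899, without symbols, followed at 3.99, 3.64 and 3.59. The lowest were MTCO1P12 (-2.01), a nuclear copy of a mitochondrial gene, HSP90AB2P (-1.90), DANCR (-1.59), RPSAP9 (-1.44) and the snoRNA host SNHG29 (-1.40).

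IP over input also differed by region of the transcript. Summed over all genes, 3′ UTR bins held 55.6% of the IP and 47.4% of the input reads (log2 0.23), while coding bins held 19.7% and 38.1% (-0.95), and 5′ UTR bins 0.424% and 0.432% (-0.03). Of 4658 genes with at least 100 reads in both regions, 3451 (74.1%) had a higher IP over input in the 3′ UTR than in the coding region, by a median of 0.41 log2 units (quartiles -0.01 and 0.90). The difference was at least 2-fold in 982 genes, and in the opposite direction in 53. Both values of a gene come from the same 2 libraries.

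Several genes were split within their own transcript. HSP90AA1, a chaperone with 21443 IP against 33683 input reads and -1.03 in all, was at 0.54 in the 3′ UTR and -1.62 in the coding region. RPL15 was at 0.38 and -1.47, TOP2A at 1.95 and -0.98, TNPO1 at 2.26 and -0.70, and MRPL19 at 2.86 and -0.25. For CELF1 the values were 2.98 and 0.75, and for CCND1 2.30 and 0.60. JUND, by contrast, was alike in both, at 3.48 and 3.42, as was FTL at -2.27 and -2.27, and GAPDH was lower in the 3′ UTR at -2.23 than in the coding region at -1.45.

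The gap between the regions also differed among lists. Over all 4647 protein-coding genes kept with both regions measured, the medians were -0.32 in the 3′ UTR and -0.72 in the coding region. The 3′ UTR was higher in 3447 of them. Among such genes, the 27 RNA-binding regulators had a median of 0.16 in the 3′ UTR and -0.80 in the coding region. The 41 mitotic genes had -0.20 and -0.98, with the 3′ UTR higher in 38. In contrast, 73 cytosolic ribosomal protein genes were low in both, at -1.42 and -1.68, as were 33 histone genes at -1.34 and -1.37. The 20 aminoacyl-tRNA synthetases were lower in the 3′ UTR (-1.57) than in the coding region (-1.20). The ends were chosen by the value of the whole gene, most of whose IP reads lie in the 3′ UTR in the highest group, so their values by region are a description alone. Of genes in the highest 5%, 183 had both regions measured and medians of 2.20 and 0.80, and of the lowest 5%, 283 had medians of -1.65 and -1.61. These splits by list and by end were described after the values were seen.

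**Figure D3:**
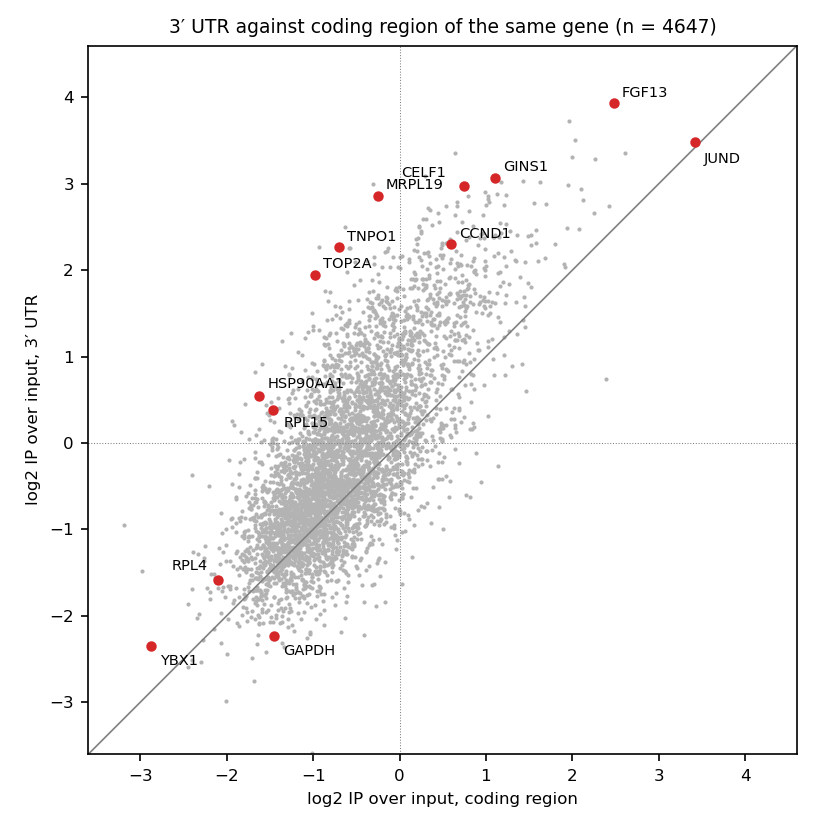
Log2 IP over input of the 3′ UTR (y axis) against that of the coding region (x axis) in 4647 protein-coding genes kept with at least 100 reads in each, one grey point per gene. The line marks equal values; red points are named genes, of which MRPL19, TNPO1, TOP2A and HSP90AA1 lie far above it and JUND on it.

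Bin by bin along single transcripts, IP was above input in 301 of the 303 listed 3′ UTR bins of CELF1 and in 161 of 165 of CCND1, each scaled to reads per 1000000 of the list. In their coding regions it was above input in 48 of 57 and in 28 of 31 bins, by less, as the values by region show. In RPL4, IP was above input in none of 15 listed 3′ UTR bins and in 3 of 53 coding bins. In YBX1 it was above in 5 of 20 and in none of 31. These transcripts were chosen after their values were seen. No share over all genes stands beside the counts, so they are a description alone.

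**Figure D4:**
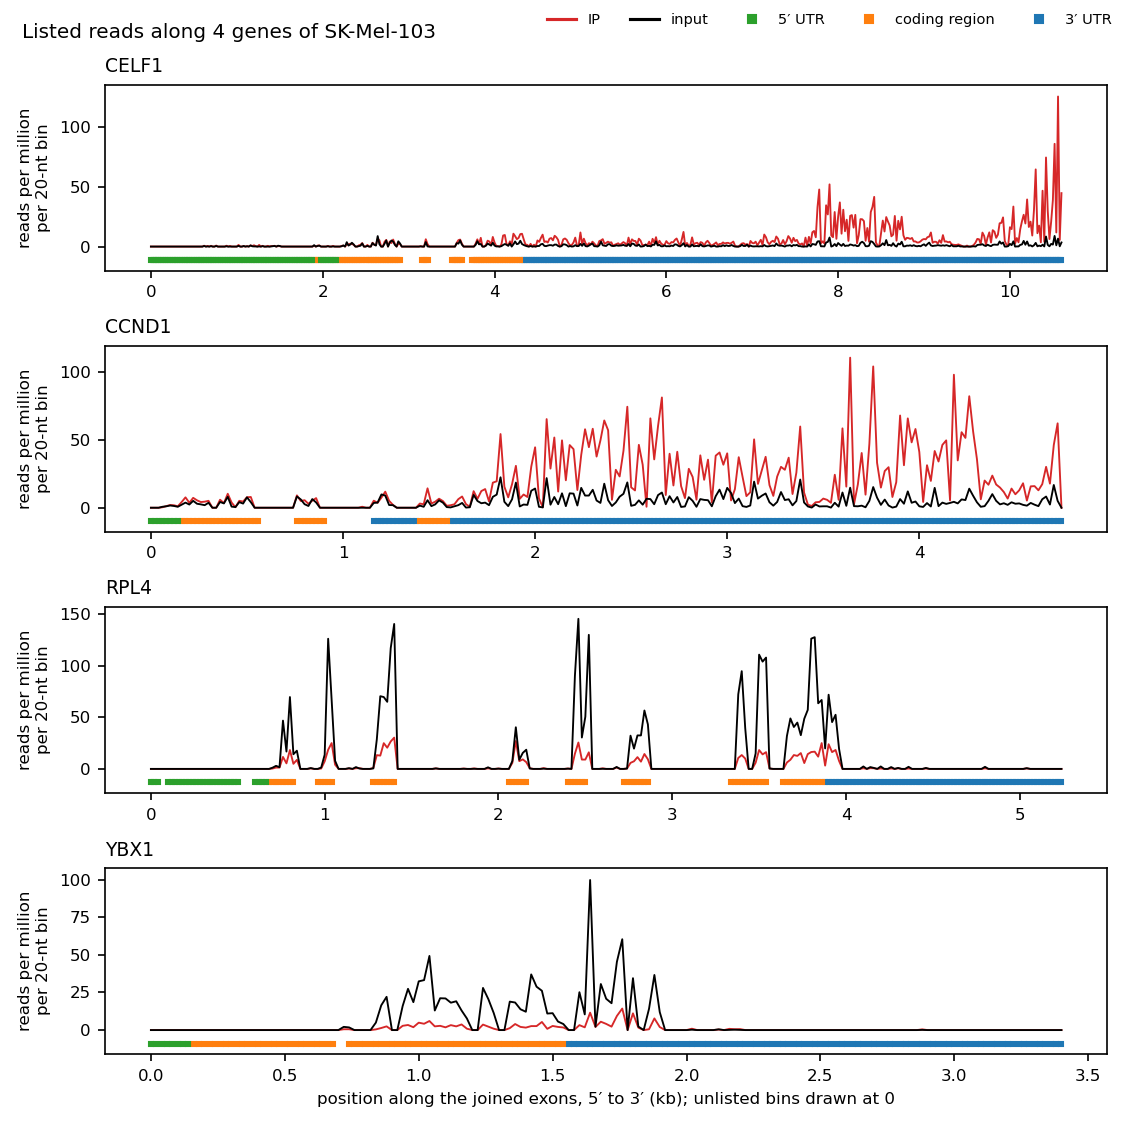
Reads per 1000000 of the list in each 20-nt exonic bin (y axis) along the joined exons of CELF1, CCND1, RPL4 and YBX1 (x axis, kb), with IP in red and input in black; unlisted bins are drawn at 0 and coloured marks give the region. IP lies above input in 301 of 303 listed 3′ UTR bins of CELF1 and in 3 of 53 coding bins of RPL4. The transcripts were chosen after values were seen.

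The genes at the 2 ends differed in their build. The ends were set as the 327 protein-coding genes (5%) with the highest and the lowest values. P2RY1 lay just inside at 1.58 and TENT5A just outside at 1.58, and at the other end YWHAE inside at -1.43 and NDUFAF3 outside at -1.43. Lengths and motif counts were taken over regions merged across the annotated transcripts of a gene, so lengths can exceed those of a single transcript. The median merged 3′ UTR was 3758 nt long in the highest group, 632 nt in the lowest and 2086.5 nt in all genes. Coding length was 1411, 754 and 1503 nt. The 3′ UTR held 2.84 UGU per 100 nt in the highest group and 2.08 in the lowest, against 2.44 in all genes. At least 1 UGUGUG stood in the 3′ UTR of 88.4% of the highest, 30.9% of the lowest and 61.2% of all genes, although a longer 3′ UTR has more places for it. The GC content of exons was 44.9%, 47.6% and 44.5%.

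Listed input per kb of merged exon moved even more, with a median of 35.1 reads in the highest, 615 in the lowest and 83.8 in all genes. Across 6542 protein-coding genes, which share both libraries, Spearman's rho of log2 IP over input was -0.49 with input per kb, 0.45 with 3′ UTR length and -0.11 with GC content. With UGU per 100 nt it was 0.30, over 6539 genes. From the 10% of genes with the lowest to the 10% with the highest input per kb, the median went from 0.52 to -1.18. From the 10% with the shortest to the 10% with the longest 3′ UTRs it went from -1.04 to 0.29. Input is itself the denominator of the value, and no bin under 4 IP reads was listed. The part of input level, length and sequence in the values above was not tested.

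**Figure D5:**
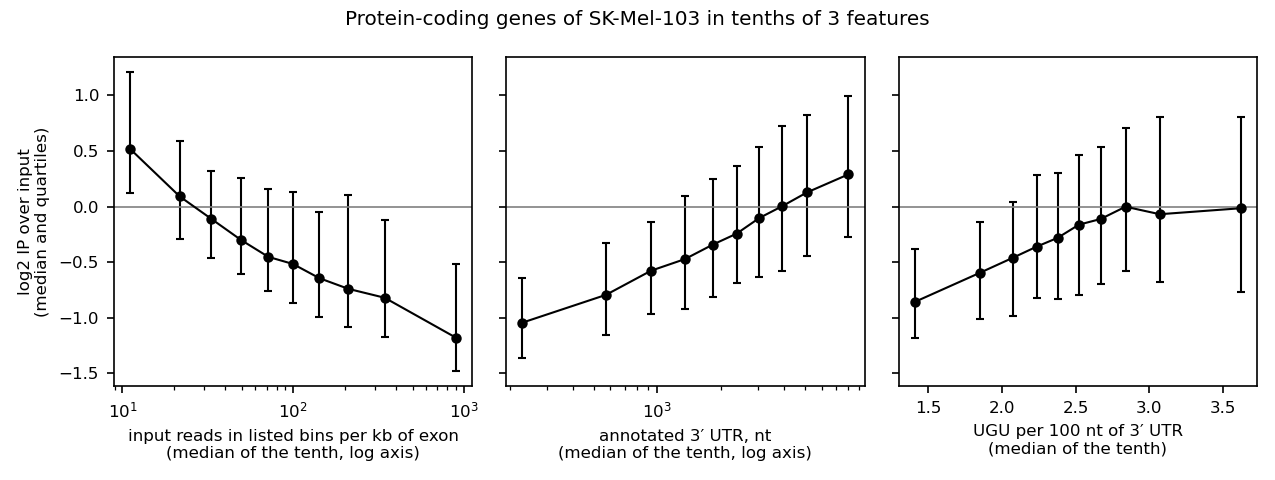
Median log2 IP over input with quartiles (y axis) of protein-coding genes in SK-Mel-103, in 10 groups of like size by listed input reads per kb of exon, 3′ UTR length (both on log axes) and UGU per 100 nt of 3′ UTR. Medians go from 0.52 to -1.18 with input and from -1.04 to 0.29 with 3′ UTR length. Genes of few input reads were kept only with many IP reads. Exon and 3′ UTR lengths are merged over the transcripts of a gene.

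UACC-62, a second melanoma line with its own inputs, offered a repeat in samples that the choice of the ends did not use. Of the 805 genes at least 2-fold higher in SK-Mel-103, 706 were kept in all 3 lists, and 556 of these (78.8%) were at least 2-fold higher in both UACC-62 replicates and none lower. Of 5215 genes kept in all lists, 12.4% were higher in both UACC-62 replicates, and the shared genes made up 86.1% of them. Of 1122 lower genes kept in all lists, 1068 (95.2%) were lower in both replicates, against 34.0% of all, and made up 60.2% of the UACC-62 genes. Pearson's r across these genes was 0.94 between SK-Mel-103 and each UACC-62 replicate and 0.96 between the replicates. All lists came from the same caller and antibody, and their genes share length and sequence.

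Among the genes named at the ends, RIMS1 and H2BC18 were not kept in both UACC-62 lists, and the others had the same sign in both replicates. FGF13 was at 4.41 and 4.23 in UACC-62 replicates 1 and 3, JUND at 4.73 and 3.77, CELF2 at 3.50 and 2.91, GINS1 at 3.17 and 3.36, and CELF1 at 3.34 and 3.26. YBX1 was at -3.51 and -2.93, and RPL4 at -2.96 and -2.52. The median of cytosolic ribosomal protein genes was -2.64 and -2.27. Of these values, those of SK-Mel-103 lay nearer to 0 than both replicates except for CELF2, which lay between them. SK-Mel-103 lay above both UACC-62 values in 3248 of the 5215 genes and below both in 942, with list medians of -0.74 and -0.47 for the UACC-62 replicates and -0.33 for SK-Mel-103. The lists were scaled separately, and with 1 SK-Mel-103 sample no difference between the lines was tested.

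Single genes far outside the UACC-62 pair were NDUFA6, a complex I subunit, at -0.60 against -2.63 and -2.62, and TBC1D16 at 0.87 against -1.10 and -0.82. In the other direction, ZNF703 was at 2.67 against 4.48 and 4.31, and SCD5, a stearoyl-CoA desaturase, at 1.34 against 2.76 and 2.79. TBC1D16 rested on 155 IP and 65 input reads here, against 2230 and 4286 in UACC-62 replicate 1. These 4 genes were chosen after their values were seen.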

How the data were processed

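RIP-Seq lists of 3 IP samples were used, that of SK-Mel-103 being the subject. The authors aligned reads with TopHat to GRCh37 and called bins of 20 bp with Piranha against input. Per passing bin, the authors deposited a count of IP reads and a p-value. The study's methods give a false discovery rate of 0.05 as the threshold, while the files do not say whether the deposited p-value is itself corrected. The ratio deposited by the authors in the last column is the covariate, and dividing it by its smallest value gave whole input reads (0.01 marks none). The submitters' processing notes name TopHat2 2.0.4, Bowtie 0.12.7 and SAMtools 0.1.16.

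Bins were placed by their centre in GENCODE (version 44, mapped to GRCh37), in 3′ UTR, coding region and 5′ UTR in that order. Bins in exons of several genes, readthrough transcripts, the mitochondrial genome (its sequence may differ between builds, so that 1 list of 37 had no gene) and chromosome Y were left out, the last after a first look at the values. All listed bins ended within the reference chromosomes.

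No test was run. A gene was counted as higher or lower at a fold of 2. Named genes were, among genes kept, the 15 coding and 5 other genes at each end by the bound of the 95% Clopper-Pearson interval, the highest, lowest and IP-richest gene of each list, CELF1, DEK, BIRC5, marker genes and the 10 genes with the most IP reads. Members and lists were chosen with earlier results of these data known. Some genes, the windows of CELF1 and CCND1 and the plotted transcripts were chosen after values were seen. Reads carry no molecular identifiers, so intervals cover counting error only. There were 11 alternatives, and 1 (chromosome Y kept) was added after seeing the data. The scripts were checked on simulated data. Tools were scipy 1.17.1, pandas 2.3.3, numpy 2.4.6 and matplotlib 3.10.9 under Python 3.11.15.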

Additional observations from a re-analysis of the deposited data

Results flagged for a closer look

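Listed bins outside the annotated exons used here were part of no comparison. They include the bins of the mitochondrial genome and chromosome Y, which were left out. In SK-Mel-103 they held 20.2% of the IP reads against 10.5% of the input reads, over 278392 bins. Mitochondrial bins alone held 0.0894% of its IP and 0.545% of its input reads. In UACC-62 replicates 1 and 3 the bins outside exons held 20.7% and 13.5% of the IP and 7.35% and 7.01% of the input reads. Mitochondrial bins there held 0.230% and 0.365% of the IP and 1.18% and 1.10% of the input reads. What these bins are was not tested.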

How the results depend on the processing

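No paired analysis was possible because SK-Mel-103 has 1 IP and 1 input. The median over all genes (-0.33) was -0.15 with totals of exonic bins, -0.34 without mitochondrial and small RNA bins, -0.18 and -0.47 with minimums of 50 and 1000 reads, 0.31 with bins over 30 IP reads, -0.31 with bins at p under 0.01, -0.28 with bins that have input and -0.14 with 3′ UTR bins alone. The count of higher genes (805) was 460 with the minimum of 1000 reads, where 3341 genes remained to be counted, and 402 with bins over 30 IP reads, where 1200 did. That of lower genes (1323) was 831 with exonic totals, 519 after centring, 301 with bins over 30 IP reads and 764 with 3′ UTR bins alone. Higher genes then made up 57.2% of the calls with bins over 30 IP reads and 54.6% with 3′ UTR bins alone. The 3′ UTR exceeded the coding region by 0.35, 0.703, 0.54 and 0.42 with 50 reads, 1000 reads, bins over 30 IP reads and bins with input, against 0.41. HSP90AA1 and CSNK1A1 changed sign, to 0.54 and 0.24, with 3′ UTR bins alone, which leave out their coding region. No other named gene past 2-fold changed sign where an alternative gave it a value, which was so for 82 of 113 with 3′ UTR bins alone and 74 with bins over 30 IP reads. Keeping chromosome Y, an alternative chosen after seeing the data, gave 807 higher and 1323 lower genes. With 3′ UTR bins alone, 3 of 8 list medians remained past 2-fold lower.

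The values rest on reads in passing bins, so that transcripts whose bins did not pass have none. Genes of low input carry wide intervals, such as RIMS1 with 12 input reads. Reads with several possible places were counted by the authors, and multicopy families are uncertain.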
